A study of Mus musculus with 6 samples.

Results

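The genes described here are 10 mouse genes of glutathione conjugation and xenobiotic handling, taken by symbol from a read count table of 31205 genes, by a rule that names symbols and uses no measured value. They are the cytosolic glutathione transferases Gstm1, Gstp1, Gsta4 and Gsto1, the membrane-bound transferases Mgst1, Mgst2 and Mgst3, the epoxide hydrolase Ephx1, the export pump Abcc1 and the carbonyl reductase Cbr3. All 10 were in the table, and 9 passed the filter on low counts. RNA-seq libraries were compared between a PD-L1 KO derivative of DC2.4 cells (3 libraries) and DC2.4 cells of genotype Control (3 libraries). DC2.4 is a mouse dendritic cell line, and PD-L1, the product of Cd274, restrains T cells through the receptor PD-1. The labels name no treatment, promoter or guide, and do not say whether the KO line was 1 clone or what the Control cells had been through. Separate cultures are not stated for the libraries of either group, so p-values reflect library-to-library spread that may be technical.

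Cytosolic glutathione transferases join the thiol of glutathione to electrophiles such as lipid peroxidation aldehydes, epoxides and quinones. The membrane-bound enzymes of the MAPEG family do the same at the endoplasmic reticulum, also reduce lipid hydroperoxides, and are related to the enzyme that makes leukotriene C4 in myeloid cells. Epoxide hydrolase adds water to epoxides, carbonyl reductases reduce ketones and quinones, and Abcc1 carries glutathione conjugates and leukotriene C4 out of the cell. Many of these genes are textbook targets of the transcription factor NRF2 (Nfe2l2), which binds antioxidant response elements, or of the aryl hydrocarbon receptor (Ahr), which binds xenobiotic response elements.

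The 3 PD-L1 KO libraries held 13501776 to 21133688 counts and the 3 Control libraries 10918498 to 23250065. Cd274 was not lower in the libraries labelled KO, which had 102, 81 and 163 counts against 52, 99 and 171 in the Control libraries (log2 fold change 0.28, SE 0.25, edgeR adjusted p = 0.415). A count over the whole gene cannot reveal an edit of its coding part, so every direction given rests on the labels. Of 19 dendritic and myeloid markers 16 passed the filter, with summed levels of 1511 to 1723 CPM (read counts scaled to the TMM-normalised library size) in KO libraries and 1569 to 1704 CPM in Control libraries, while the defining markers H2-Ab1, Flt3 and Batf3 did not pass. Of these 16, 2 were higher in KO (Fcer1g, log2 fold change 0.76, and Cd80, 0.53), against 11.8% of all tested genes. Lower in KO were 3 (Lyz2, -2.81, Csf1r, -0.72, and Zbtb46, -0.72), against 13.5% of all tested genes. Over these 5 markers the edgeR adjusted p was 9.34e-05 to 0.049. Their part in the results on the 10 genes was not tested. The markers of hepatocytes, the classical site of these enzymes, summed to 1.36 to 2.02 CPM in KO libraries and 1.12 to 1.36 CPM in Control libraries, with 6 of 10 markers at 0 throughout. The lymphocyte list summed to 0.299 to 0.755 CPM in KO libraries and 0.652 to 0.895 CPM in Control libraries, with 3 of 8 markers at 0. The epithelial and endothelial list summed to 0.299 to 1.01 CPM in KO libraries and 0.269 to 0.948 CPM in Control libraries, with 1 of 8 at 0. The 12 stromal and fibroblast markers, 3 of them at 0, summed to 0.199 to 0.604 CPM in KO libraries and to 0.639 to 220.5 CPM in Control libraries, where Control library 2 stood apart through Col1a1 and Fn1. These libraries are of bulk RNA, in which fewer cells of a type and less RNA per cell cannot be told apart.

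In PD-L1 KO cells the cytosolic transferases Gstm1 and Gsto1 were higher and the epoxide hydrolase Ephx1 was lower, while the other 6 tested genes did not pass the test. Gstm1 was 1.76-fold and Gsto1 1.62-fold higher, and Ephx1 2.95-fold lower. These 3 calls of 9 genes tested (33.3%) stood against 25.3% of all 11453 tested genes at an edgeR adjusted p under 0.05, with 2 of 9 higher against 11.8% of all genes and 1 of 9 lower against 13.5%. The share of calls among the 9 was near that of the whole table. Groups did not overlap for the same 3 genes, against 43% of all tested genes, with KO above Control in 2 (21.1% of all) and below it in 1 (21.8% of all). An unadjusted p under 0.05 was reached by 5 of the 9, against 40.9% of all. The median log2 fold change of the 9 genes was 0.25, beside 0.01 over all genes. Most of the 9 have transcripts of up to 2 kb. Among all tested genes of up to 1 kb the median was 0.49, with 29.7% called higher. For those of over 1 and up to 2 kb it was 0.33, with 25.6% called higher. With total counts alone as the scaling, the all-gene median moved to -0.14 and the calls split into 667 higher and 2212 lower (23.2% of calls higher, against 46.7% under TMM scaling), while the same 3 genes were called.

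**Figure D1:**
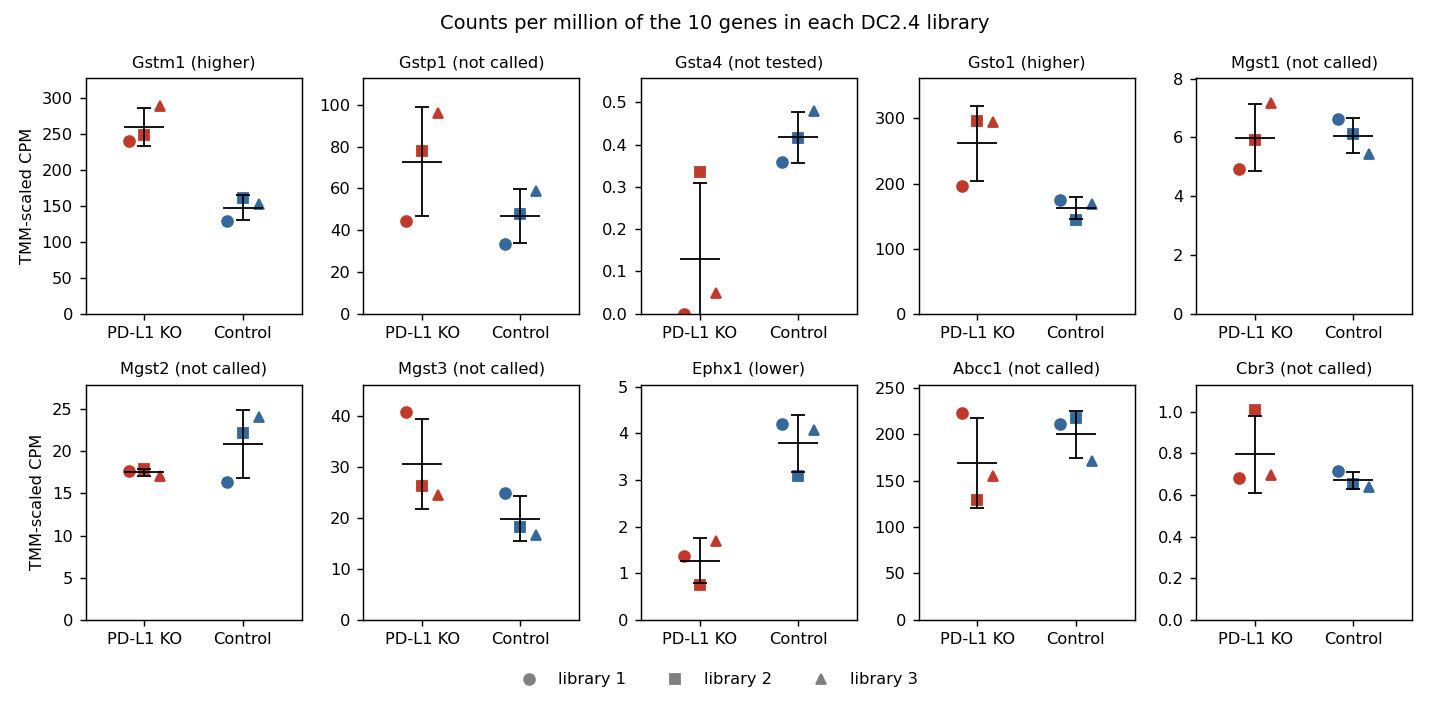
Normalised read count (CPM, linear axes starting at 0, 1 panel per gene) of the 10 genes in each library, PD-L1 KO left of Control; points are libraries and bars give mean and SD (n = 3). The KO and Control points are fully separated for Gstm1, Gsto1 and Ephx1, the 3 called genes, and also for the sparse Gsta4, which was not tested and had 0 to 0.336 CPM in KO against 0.358 to 0.480 CPM in Control.

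Promoter sequences are shown for the 3 called genes and for Gstp1, whose window held the most motif matches, since these genes are known as targets of factors that bind short elements near gene starts. Windows are from RefSeq (GRCm38.p6, the same assembly as mm10), 250 bases before to 50 after a RefSeq start of the gene. They are written 5′ to 3′ on the gene's strand, with motif matches in capitals. The motifs are the antioxidant element TGACNNNGC, its looser form TGANNNNGC (which includes the first) and the xenobiotic core GCGTG, each searched on both strands. RefSeq starts can differ from the gene positions given below, which are from the GENCODE annotation, so a window can lie inside the gene as given. Gstm1 lies at chr3:108017769-108018068 (minus strand; 1 of 2 annotated windows), Gsto1 at chr19:47854723-47855022 (plus), Ephx1 at chr1:181017520-181017819 (minus) and Gstp1 at chr19:4037863-4038162 (minus).
Gstm1: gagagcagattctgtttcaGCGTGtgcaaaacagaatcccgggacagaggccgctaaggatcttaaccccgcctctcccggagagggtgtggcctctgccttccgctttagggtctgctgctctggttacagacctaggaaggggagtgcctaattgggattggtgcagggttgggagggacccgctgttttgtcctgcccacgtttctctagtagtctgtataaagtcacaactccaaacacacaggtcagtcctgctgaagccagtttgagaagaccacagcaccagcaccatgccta
Gsto1: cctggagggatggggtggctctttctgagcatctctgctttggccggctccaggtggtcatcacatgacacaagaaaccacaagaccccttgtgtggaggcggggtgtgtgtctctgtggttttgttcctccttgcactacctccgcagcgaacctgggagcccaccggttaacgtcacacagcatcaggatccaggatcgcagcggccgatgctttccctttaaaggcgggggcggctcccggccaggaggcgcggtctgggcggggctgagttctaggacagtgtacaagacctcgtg
Ephx1: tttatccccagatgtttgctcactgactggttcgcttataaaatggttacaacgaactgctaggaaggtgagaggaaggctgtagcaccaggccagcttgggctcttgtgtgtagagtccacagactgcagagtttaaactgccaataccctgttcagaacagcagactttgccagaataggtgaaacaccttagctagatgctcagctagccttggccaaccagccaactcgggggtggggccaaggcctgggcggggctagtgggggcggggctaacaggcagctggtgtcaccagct
Gstp1: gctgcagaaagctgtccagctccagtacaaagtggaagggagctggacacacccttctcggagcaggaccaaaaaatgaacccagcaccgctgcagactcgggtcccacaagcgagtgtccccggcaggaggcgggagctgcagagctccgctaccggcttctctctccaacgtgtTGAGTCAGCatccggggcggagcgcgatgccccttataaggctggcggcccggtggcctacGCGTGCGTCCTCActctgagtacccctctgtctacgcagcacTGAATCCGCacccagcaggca
The Gstp1 run in capitals near the start joins a GCGTG and a reverse-strand match to TGANNNNGC that share 1 base.

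Windows were found for 8 of the 10 genes, and Gsta4 and Abcc1 were not matched. The stricter antioxidant form occurred in 1 of the 8, against 14.0% of the 27025 genes with a window. That match was in Mgst1, on the reverse strand 56 bases before a RefSeq start and within the gene as given by GENCODE. It is shown with 10 bases either side.
Mgst1: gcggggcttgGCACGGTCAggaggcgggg
The looser form occurred in 2 of the 8 genes, Mgst1 and Gstp1, against 45.0% of all genes. Gstp1 held 3 matches, of which the one 74 bases before the RefSeq start is the sequence TGAGTCAGC. The xenobiotic core occurred in 3 of the 8 genes (Gstm1, Gstp1 and Mgst3), against 35.2% of all genes. None of the 3 called genes had either antioxidant form in its window, and the windows of Gsto1 and Ephx1 had none of the 3 motifs. The Ephx1 window lies inside the gene as given by GENCODE (180976210 to 181020904), whose own start was not searched. A match describes letters only, and the lack of one says only that these letters are not in this window.

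Among the cytosolic transferases, Gstm1, the mu-class enzyme (ENSMUSG00000058135.12, chromosome 3, 108012255 to 108017973, minus strand, mm10), had 240.1, 249 and 289 CPM in KO libraries 1, 2 and 3, against 128, 161 and 153 CPM in Control libraries 1, 2 and 3. Every KO library lay above every Control library, and the spread within each group was smaller than the gap between the group means. The means were 259 ± 26.1 CPM in KO and 147 ± 17.01 CPM in Control (SD, n = 3 each), which is a log2 fold change of 0.82 (95% interval 0.50 to 1.13, SE 0.14, edgeR adjusted p = 0.00511). The raw counts behind these values were 3181, 3702 and 5808 in KO and 1432, 2713 and 3824 in Control. Of the 50-base words in its longest transcript, 23.2% also occur in another annotated transcript, most often of the pseudogene Gstm2-ps1, so some of its reads may have been shared with mu-class copies. At 100 bases the share was 7.73%.

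Gsto1, the omega-class enzyme, reduces dehydroascorbate and mixed disulfides with glutathione (ENSMUSG00000025068.8, chromosome 19, 47854970 to 47864790, plus strand). It had 195.5, 296 and 295 CPM in KO libraries 1, 2 and 3, against 174, 143 and 169 CPM in Control libraries 1, 2 and 3. KO library 1 lay close above the highest Control library, and KO libraries 2 and 3 lay far above it. The means were 262 ± 57.7 CPM in KO and 162 ± 16.5 CPM in Control, which is a log2 fold change of 0.69 (95% interval 0.30 to 1.09, SE 0.18, edgeR adjusted p = 0.0205). The call was lost without Control library 2 (0.61, edgeR adjusted p = 0.105), the library with stromal transcripts, whose part in the result was not tested. It was also lost without KO library 2 (0.60, adjusted p = 0.0805) or KO library 3 (0.61, adjusted p = 0.0795, edgeR).

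Both genes have short transcripts, of 1.29 kb for Gstm1 and 1.18 kb for Gsto1, and fold changes over the whole table moved with transcript length. Genes of over 1 and up to 2 kb had a median log2 fold change of 0.33, with 25.6% called higher and 4.04% lower, whereas those over 6 kb had a median of -0.48, with 1.87% higher and 42.3% lower. With offsets that removed each library's trend with merged exon length and GC content, Gstm1 was at 0.46 (edgeR adjusted p = 0.0422) and Gsto1 at 0.40 (adjusted p = 0.0715). With the longest transcript as the length, Gstm1 was at 0.45 (edgeR adjusted p = 0.0496) and Gsto1 at 0.30 (adjusted p = 0.136). Gsto1 thus lost its call in both of these fits, and the call of Gstm1 lay close to the threshold in each.

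**Figure D2:**
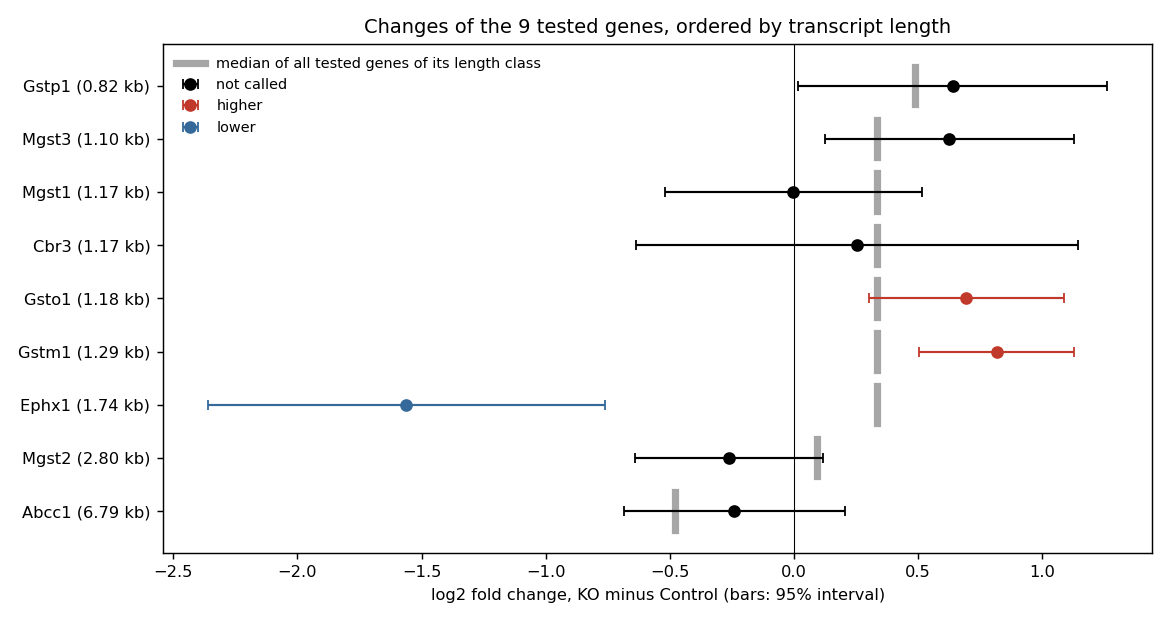
Log2 fold change (KO minus Control, horizontal axis) of the 9 tested genes, from the shortest to the longest transcript down the page, with 95% intervals; grey bars mark the median of all tested genes of the same length class. Gstm1 (0.82, interval from 0.50) and Gsto1 (0.69, interval from 0.30) lie above their class median of 0.33, and Ephx1 (-1.56) lies far below it. The interval of Gsto1 includes that median. Of the uncalled genes, Gstp1, Mgst3 and Abcc1 also lie above their class medians, and Mgst1, Mgst2 and Cbr3 lie below theirs.

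Gstp1, the pi-class enzyme (ENSMUSG00000060803.6, chromosome 19, 4035407 to 4037985, minus strand), had 44.5, 77.9 and 96.3 CPM in KO libraries 1, 2 and 3, against 33.3, 47.8 and 59.0 CPM in Control libraries 1, 2 and 3. The groups overlapped, since KO library 1 lay below Control libraries 2 and 3 and library 3 was the highest of either group. The log2 fold change was 0.64 (SE 0.28, 95% interval 0.02 to 1.26, edgeR adjusted p = 0.114), which did not pass. Without KO library 1 it was 0.89 (edgeR adjusted p = 0.00394), and with no filter on low counts 0.65 (adjusted p = 0.0168), both past the threshold. Without KO library 3 it was 0.39 (edgeR adjusted p = 0.37), with the length and GC offsets 0.27 (adjusted p = 0.489) and with those on the longest transcript 0.16 (adjusted p = 0.722). Gstp1 shares 62.3% of its 50-base words with its near-identical neighbour Gstp2, which had 3, 0 and 2 counts in KO libraries and 1, 2 and 2 in Control libraries, so the division of reads between the copies is uncertain. Gsta4, the alpha-class enzyme known for conjugating hydroxynonenal (ENSMUSG00000032348.6, chromosome 9, 78182774 to 78209349, plus strand), had 0, 5 and 1 counts in KO libraries and 4, 7 and 12 in Control libraries. It was too sparse for the filter. The ratio of Control to KO was 3.48 (95% interval 1.38 to 10.5, counting error only), and a fit with no filter gave a log2 fold change of -1.67 (SE 0.92, edgeR adjusted p = 0.23).

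The 3 membrane-bound transferases did not pass the test. Mgst3 (ENSMUSG00000026688.5, chromosome 1, 167371966 to 167393841, minus strand), known in humans as a glutathione transferase and peroxidase, had 40.7, 26.3 and 24.6 CPM in KO libraries 1, 2 and 3, against 24.8, 18.3 and 16.5 CPM in Control libraries 1, 2 and 3. Only KO library 3 lay below the highest Control library, by a small margin, and library 1 was the highest of both groups. The log2 fold change was 0.63 (SE 0.23, 95% interval 0.12 to 1.13, edgeR adjusted p = 0.0657). It passed with the DESeq2 Wald test (0.62, adjusted p = 0.041), with no filter (0.64, edgeR adjusted p = 0.0166) and without Control library 1 (0.81, edgeR adjusted p = 0.0467). With the length and GC offsets it was 0.26 (edgeR adjusted p = 0.507), with those on the longest transcript 0.25 (adjusted p = 0.517), and without KO library 1 0.36 (adjusted p = 0.121).

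Mgst2, which has leukotriene C4 synthase activity in humans (ENSMUSG00000074604.9, chromosome 3, 51660360 to 51682677, plus strand), had 17.7, 17.9 and 17.1 CPM in KO libraries 1, 2 and 3, against 16.4, 22.2 and 24.1 CPM in Control libraries 1, 2 and 3. KO libraries were nearly equal and lay within the Control range (log2 fold change -0.26, SE 0.17, 95% interval -0.64 to 0.12, edgeR adjusted p = 0.271). Mgst1, the most abundant microsomal transferase of liver (ENSMUSG00000008540.11, chromosome 6, 138140316 to 138156755, plus strand), had 4.91, 5.91 and 7.16 CPM in KO libraries 1, 2 and 3, against 6.62, 6.10 and 5.43 CPM in Control libraries 1, 2 and 3. The groups overlapped and the log2 fold change was -0.0034 (SE 0.23, 95% interval -0.52 to 0.51, edgeR adjusted p = 0.992). Mgst1 was the gene whose promoter window held the stricter antioxidant form.

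Ephx1, the microsomal epoxide hydrolase (ENSMUSG00000038776.13, chromosome 1, 180976210 to 181020904, minus strand), was sparse, with 18, 11 and 34 counts in KO libraries 1, 2 and 3 and 47, 52 and 102 in Control libraries 1, 2 and 3. This gave 1.36, 0.739 and 1.69 CPM in KO against 4.21, 3.08 and 4.08 CPM in Control. Every KO library lay below every Control library. The means were 1.26 ± 0.484 CPM in KO and 3.79 ± 0.615 CPM in Control, which is a log2 fold change of -1.56 (95% interval -2.36 to -0.76, SE 0.36, edgeR adjusted p = 0.0146). The call ended narrowly without Control library 2 (-1.69, adjusted p = 0.0502) and without KO library 2 (-1.30, adjusted p = 0.0566, edgeR). Its transcript of 1.74 kb falls in the length class in which 4.04% of genes were lower, and 3.69% of its exon length overlaps the pseudogene Gm36961.

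Cbr3, a carbonyl reductase of quinones and ketones (ENSMUSG00000022947.8, chromosome 16, 93683215 to 93690990, plus strand), had 9, 15 and 14 counts in KO libraries 1, 2 and 3 and 8, 11 and 16 in Control libraries 1, 2 and 3. On these counts the interval was wide (log2 fold change 0.25, SE 0.40, 95% interval -0.64 to 1.14, edgeR adjusted p = 0.664), and a difference within it was not detectable at this depth. Abcc1, the exporter of glutathione conjugates (ENSMUSG00000023088.17, chromosome 16, 14361558 to 14475737, plus strand), had 223, 129 and 155 CPM in KO libraries 1, 2 and 3, against 211, 217 and 171 CPM in Control libraries 1, 2 and 3. KO library 1 was the highest of all 6 and KO library 2 the lowest. The log2 fold change was -0.24 (SE 0.20, 95% interval -0.69 to 0.20, edgeR adjusted p = 0.39). Its direction depended on the settings: without KO library 1 it was called lower (-0.50, edgeR adjusted p = 0.0191), and with the length and GC offsets it was called higher (0.34, adjusted p = 0.0468). Abcc1 has a transcript of 6.79 kb but merged exons of 15092 bases, and with the transcript length the offsets gave 0.17 (edgeR adjusted p = 0.344).

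**Figure D3:**
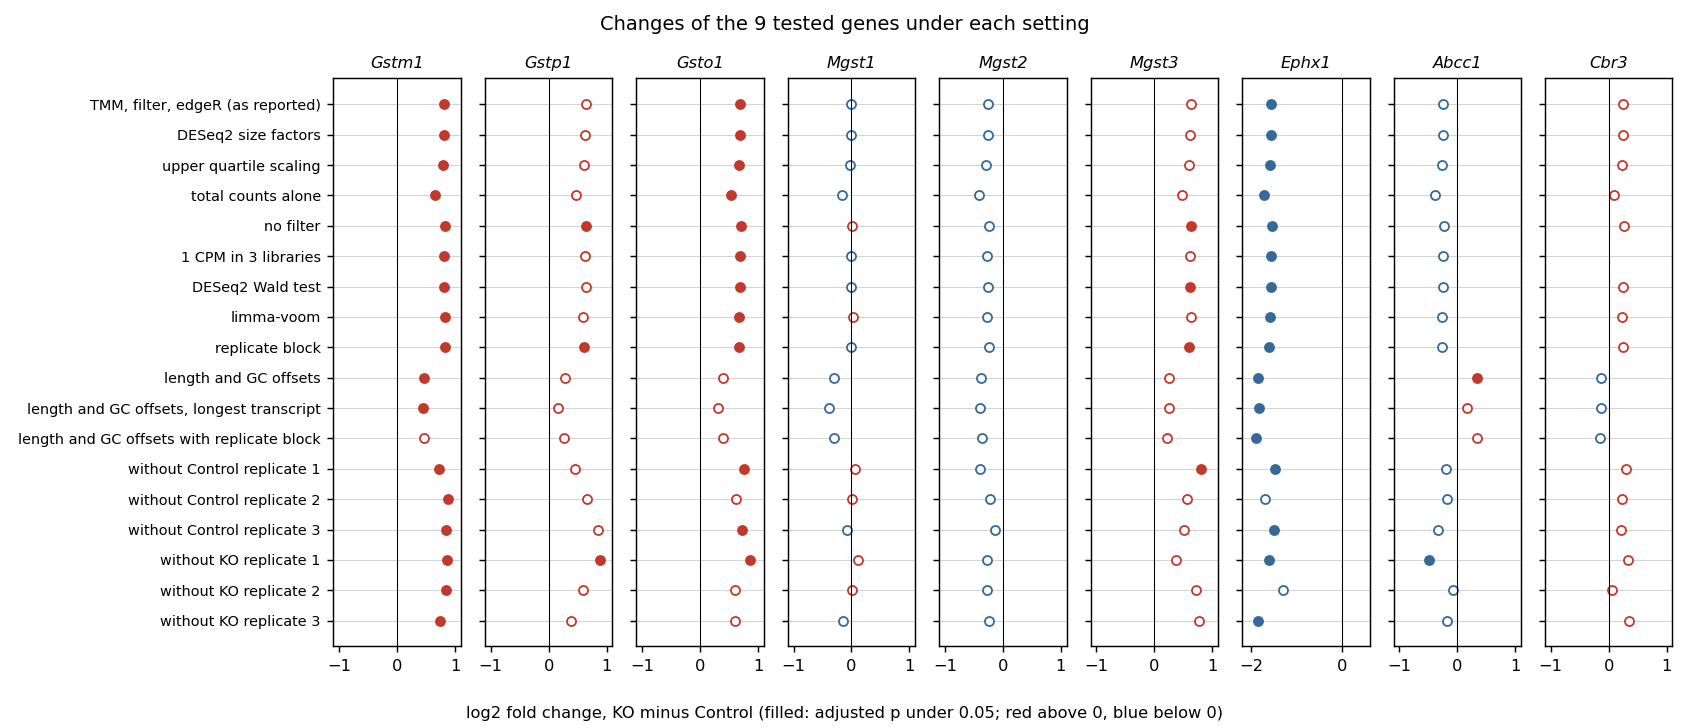
Log2 fold change (KO minus Control) of the 9 tested genes under TMM scaling with edgeR and under the 17 alternatives, 1 panel per gene and 1 line per setting; filled points passed an adjusted p of 0.05 and open points did not. Gstm1 stays between 0.45 and 0.88 and Ephx1 between -1.89 and -1.30, whereas the points of Abcc1 lie on both sides of 0, from -0.50 to 0.34.

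Compared per length, the cytosolic transferases Gsto1 and Gstm1 were the most abundant of the 10 genes. On the scale of CPM per kb of the longest transcript, Gsto1 was at 222 ± 48.8 in KO and 137 ± 14.0 in Control, and Gstm1 at 201 ± 20.2 in KO and 114 ± 13.2 in Control (SD, n = 3 each). The libraries of these neighbours overlapped in both groups, and with merged exons as the length Gstm1 came first (176 in KO and 99.96 in Control, against 129.5 in KO and 80.1 in Control for Gsto1). Gstp1 came next, at 88.8 ± 32.0 in KO and 56.9 ± 15.7 in Control, and did not overlap its neighbours. In KO the order went on with Mgst3 (27.8 ± 8.06) and Abcc1 (24.9 ± 7.16), which overlapped, then Mgst2 (6.25 ± 0.149) and Mgst1 (5.14 ± 0.969), which overlapped, then Ephx1 (0.725 ± 0.278) and Cbr3 (0.679 ± 0.158), which overlapped, and Gsta4 last. In Control, Abcc1 (29.4 ± 3.73) stood above Mgst3 (18.1 ± 3.97), followed by Mgst2 (7.46 ± 1.44), Mgst1 (5.19 ± 0.510), Ephx1 (2.18 ± 0.353), Cbr3 (0.572 ± 0.0351) and Gsta4, none of these overlapping its neighbour. The place of Abcc1 depended on the length used, since with merged exons it lay below Mgst3 in both groups (11.2 in KO and 13.2 in Control, against 27.8 in KO and 18.1 in Control for Mgst3). Among 11396 tested genes with a length, Gsto1 stood at percentile 97.5 in KO and 96.8 in Control and Gstm1 at 97.2 in KO and 95.9 in Control, while Ephx1 stood at 11.3 in KO and 18.6 in Control.

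**Figure D4:**
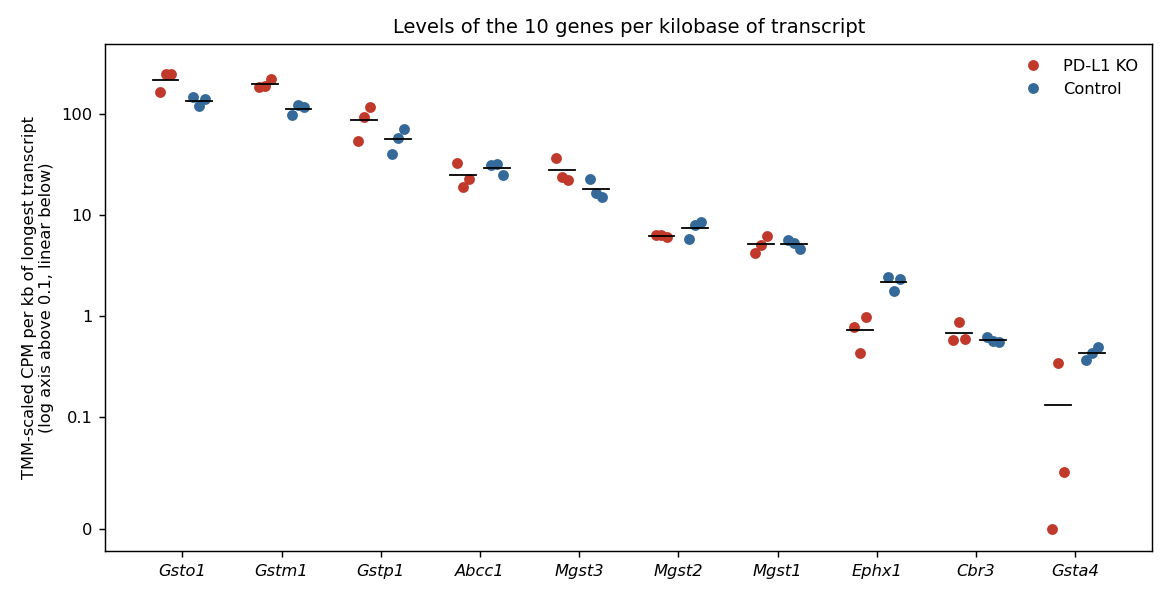
Level of the 10 genes per length (CPM per kb of the longest transcript, log axis above 0.1 and linear below), PD-L1 KO left of Control for each gene, points for libraries and lines for means. Levels reach from 0 for Gsta4 in a KO library to 250.4 for Gsto1, with Gsto1 and Gstm1 on top in both groups.

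Summed per kb, the 4 cytosolic genes reached 406, 538.5 and 591 CPM per kb in KO libraries 1, 2 and 3, against 287.5, 304.5 and 334 in Control libraries 1, 2 and 3. The groups of sums did not overlap, and the sum is made almost wholly of Gstm1, Gsto1 and Gstp1. Taken singly, 21.1% of all tested genes had every KO library above every Control library. Transcripts of these 3 genes fall in the length classes with median log2 fold changes of 0.49 (Gstp1) and 0.33 (Gstm1 and Gsto1). The 3 membrane-bound genes summed to 47.6, 35.4 and 34.6 CPM per kb in KO libraries and to 34.1, 29.8 and 28.4 in Control libraries, again without overlap but with KO library 3 close to Control library 1. Of the summed level of these 7 transferases, Gstm1 made up 41.1%, 33.6% and 35.8% in KO libraries 1, 2 and 3 and 30.9%, 37.3% and 32.7% in Control libraries. Gsto1 made up 36.5%, 43.6% and 39.9% in KO libraries and 45.8%, 36.2% and 39.5% in Control libraries, so that the share of either gene overlapped between the groups.

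Patterns over the 6 libraries were compared by the root mean square difference of centred log2 CPM. Candidates were 10201 tested genes of at least 2 CPM, less those with symbols of predicted or mitochondrially encoded genes. Among those most like Gstm1 were H2-K1 (0.08), Dhrs11 (0.09), Prr3 (0.09) and H2-Ke6 (0.09). H2-K1, a class I MHC gene with close copies, averaged 730 CPM in KO and 427 CPM in Control, and H2-K1, Prr3 and H2-Ke6 lie on chromosome 17, whose 597 tested genes had a median log2 fold change of 0.38. The chromosomes of the called genes had medians of 0.12 (chromosome 3, Gstm1), 0.08 (chromosome 19, Gsto1) and 0.10 (chromosome 1, Ephx1). Nearest to Ephx1 were Ninl (0.22), Zbtb32 (0.25), Icam5 (0.25), Padi4 (0.27) and Pear1 (0.27), all at larger distances than those named for Gstm1. Ninl averaged 7.75 CPM in KO and 22.3 CPM in Control.

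Beyond these 10 genes, 168 genes of 7 lists of the surrounding pathways were in the table and 112 were tested, of which 18 were higher and 13 lower in KO (27.7% called, against 25.3% of all genes), with a median log2 fold change of 0.12. Of the 168, 20 had 0 counts in all 6 libraries. Among the other glutathione transferases, 0 of 9 tested genes passed in edgeR, against 25.3% of all genes. An unadjusted p under 0.05 was reached by 3 of the 9, against 40.9% of all genes. By DESeq2 1 was lower, and by limma-voom 1. In edgeR, 2 were lower with the length and GC offsets or with total counts alone, and 1 with upper quartile scaling, with a filter of 1 CPM in 3 libraries or without KO library 1. The mu-class genes Gstm5 (4.78 ± 0.618 CPM in KO, 7.49 ± 0.438 in Control, log2 fold change -0.65, edgeR adjusted p = 0.0513) and Gstm4 (2.19 ± 0.494 CPM in KO, 3.92 ± 0.859 in Control, -0.84, adjusted p = 0.0692) had values below 0, opposite in sign to that of Gstm1, and are named here after their values were seen; reads of such close copies may have been split. The other tested mu-class genes of this list, Gstm2 (0.31, edgeR adjusted p = 0.414) and Gstm6 (0.48, adjusted p = 0.562), had the sign of Gstm1 and did not pass either. They too are named after their values were seen. The median log2 fold change of the 9 genes was 0.16.

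Enzymes of leukotriene and prostaglandin synthesis, some of which are kin of the membrane-bound transferases, had 1 gene higher and 2 lower of 13 tested. This was 23.1% called, against 25.3% of all genes, with a median of 0.10. Thromboxane synthase, Tbxas1, fell to 0.459 ± 0.264 CPM in KO, against 2.49 ± 1.03 CPM in Control (log2 fold change -2.33, SE 0.49, edgeR adjusted p = 0.0109). The cyclooxygenase Ptgs1 was lower (-0.71, SE 0.22, edgeR adjusted p = 0.0412) and the prostaglandin E synthase Ptges3 higher (0.59, SE 0.19, edgeR adjusted p = 0.0415). Tbxas1 was narrowly not called without KO library 2 (-2.23, edgeR adjusted p = 0.0509). Of the other pair, Ptgs1 lost its call without Control library 1 (adjusted p = 0.105), 2 (0.105) or 3 (0.083) or KO library 2 (0.0793), and Ptges3 kept its call without KO library 1 but not when any other 1 library was left out, nor with the length and GC offsets (0.31, edgeR adjusted p = 0.119).

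Of 19 tested genes of glutathione synthesis and the mercapturate pathway, 3 were higher and 2 lower (26.3% called, against 25.3% of all genes, median 0.24). Leaving out 1 library gave between 1 (without Control library 2 or KO library 3) and 6 (without KO library 1) higher. The peptidase Anpep, which trims cysteinylglycine conjugates, had 2 counts in all KO libraries and 229 in Control, a Control to KO ratio of 104 (95% interval 28.5 to 864, counting error only). The gamma-glutamyltransferase family gene Ggt7 fell to 0.410 ± 0.245 CPM in KO, against 5.61 ± 1.34 CPM in Control (log2 fold change -3.78, SE 0.43, edgeR adjusted p = 0.000682). The glyoxalases, which clear methylglyoxal with glutathione, rose. Hagh was at 72.2 ± 2.87 CPM in KO and 44.8 ± 2.02 CPM in Control (0.69, SE 0.12, edgeR adjusted p = 0.00584). Glo1 was at 114 ± 23.6 CPM in KO and 69.8 ± 8.26 CPM in Control (0.70, SE 0.17, edgeR adjusted p = 0.0194). Both lie on chromosome 17. Glo1 lost its call without Control library 1 (adjusted p = 0.0586) or 2 (0.0802) or KO library 2 (0.0789) or 3 (0.0755, edgeR), and Hagh lost it with offsets on the longest transcript (0.32, edgeR adjusted p = 0.0801). The rate-limiting synthesis subunits Gclc (-0.21, edgeR adjusted p = 0.236) and Gclm (-0.03, adjusted p = 0.871) did not pass, and were named after their values were seen.

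Carbonyl reductases and other functionalizing enzymes had 9 higher and 3 lower of 34 tested (35.3% called, against 25.3% of all genes, median 0.22). Leaving out 1 library gave 1 (without Control library 2) to 11 (without KO library 1) higher. The cytochrome P450 gene Cyp4f13, on chromosome 17, rose to 315 ± 105 CPM in KO, against 125 ± 23.1 CPM in Control (log2 fold change 1.33, SE 0.25, edgeR adjusted p = 0.00748). The aldehyde reductase Akr1a1 rose to 617 ± 5.51 CPM in KO, against 394 ± 58.1 CPM in Control (0.65, SE 0.14, edgeR adjusted p = 0.0119). Akr1c13, an aldo-keto reductase, fell to 0.710 ± 0.157 CPM in KO, against 3.61 ± 0.486 CPM in Control (-2.31, SE 0.33, edgeR adjusted p = 0.00242). The paraoxonase Pon3 fell to 14.2 ± 1.88 CPM in KO, against 25.2 ± 1.72 CPM in Control (-0.83, SE 0.15, edgeR adjusted p = 0.00691). The sparse quinone reductase gene Nqo1, named after its value was seen, had 33, 43 and 41 counts in KO and 16, 19 and 25 in Control. Nqo1 was at 2.47 ± 0.425 CPM in KO and 1.19 ± 0.223 CPM in Control (1.08, SE 0.33, edgeR adjusted p = 0.0391). Its call was not examined under the other settings. Akr1a1 lost its call without Control library 2 (adjusted p = 0.0792). Of the other conjugating enzymes 1 of 11 tested was higher and 1 lower (18.2% called, against 25.3% of all genes). The higher one was the mercaptopyruvate sulfurtransferase Mpst (0.51, SE 0.12, edgeR adjusted p = 0.0176). With the length and GC offsets Mpst was at 0.26 (edgeR adjusted p = 0.133), and it was called in 2 of the 6 fits that left out a library. The lower one was the acetyltransferase Nat2, with 1 count in KO and 49 in Control (ratio of Control to KO 44.5, 95% interval 7.63 to 1790).

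Drug efflux transporters, the class of Abcc1, had 0 higher and 4 lower of 12 tested in edgeR, with a median log2 fold change of -0.56, beside 13.5% of all genes lower. An unadjusted p under 0.05 was reached by 6 of the 12, against 40.9% of all genes, and DESeq2 and limma-voom each called 1 higher. Leaving out 1 library gave 2 (without Control library 2 or KO library 2) to 8 (without KO library 1) lower. The multidrug and toxin extruder Slc47a1 fell to 0.576 ± 0.151 CPM in KO, against 10.5 ± 3.11 CPM in Control (-4.15, SE 0.34, edgeR adjusted p = 9.69e-05). The conjugate exporters Abcc2 (-2.35, SE 0.39, adjusted p = 0.00452) and Abcc3 (-1.25, SE 0.28, adjusted p = 0.0131) and the urate and drug exporter Abcg2 (-1.82, SE 0.46, adjusted p = 0.0194) fell too in edgeR. Their levels in KO were 0.608 ± 0.258, 3.55 ± 1.25 and 0.315 ± 0.0562 CPM, against 3.04 ± 0.629, 8.50 ± 0.703 and 1.13 ± 0.336 CPM in Control. These 3 have transcripts of 5.01 to 8.03 kb, in the length classes in which 16.4% and 42.3% of all genes were lower. With the length and GC offsets, on merged exons or on the longest transcript, edgeR called the same 4 transporters lower and 1 other higher. Abcc3 lost its call without Control library 2 (adjusted p = 0.0654) or KO library 2 (0.0549), and Abcg2 lost it without Control library 2 (0.0529) or 3 (0.0679) or KO library 2 (0.0794) or 3 (0.0771, edgeR).

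Regulators of xenobiotic response genes had 4 higher and 1 lower of 14 tested (35.7% called, against 25.3% of all genes, median 0.18). Fits without 1 library gave 2 (without Control library 2 or 3 or KO library 3) to 6 (without KO library 1) higher and 1 to 3 lower. The transcript of NRF2, Nfe2l2, was at 165 ± 25.6 CPM in KO and 161 ± 3.74 CPM in Control (0.04, SE 0.14, 95% interval -0.28 to 0.35, edgeR adjusted p = 0.864), its competitor Bach1 at -0.37 (adjusted p = 0.166; without KO library 1 -0.59, adjusted p = 0.00929), and the Ahr partner Arnt at -0.25 (adjusted p = 0.183). Ahr had 0 counts in all 6 libraries, as had Cyp1a1 and Cyp1b1, its best known targets. Tiparp, another known Ahr target, is named after its value was seen. It was at 24.7 ± 1.16 CPM in KO and 31.6 ± 3.39 CPM in Control (-0.36, edgeR adjusted p = 0.082). How the count table assigned reads to Ahr was not tested. Keap1, the adaptor through which NRF2 is degraded, fell to 28.6 ± 3.33 CPM in KO, against 46.9 ± 0.507 CPM in Control (-0.72, SE 0.14, edgeR adjusted p = 0.00754). The autophagy receptor Sqstm1, which binds KEAP1, rose (1.00, SE 0.12, edgeR adjusted p = 0.00087), as did the retinoid X receptors Rxra (1.35, SE 0.18, adjusted p = 0.00148) and Rxrb (0.51, SE 0.12, adjusted p = 0.0163). Rxrb, on chromosome 17, lost its call without Control library 2 (adjusted p = 0.0935) or 3 (0.0528), without KO library 3 (0.0664) or with total counts alone (0.36, edgeR adjusted p = 0.0619).

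**Figure D5:**
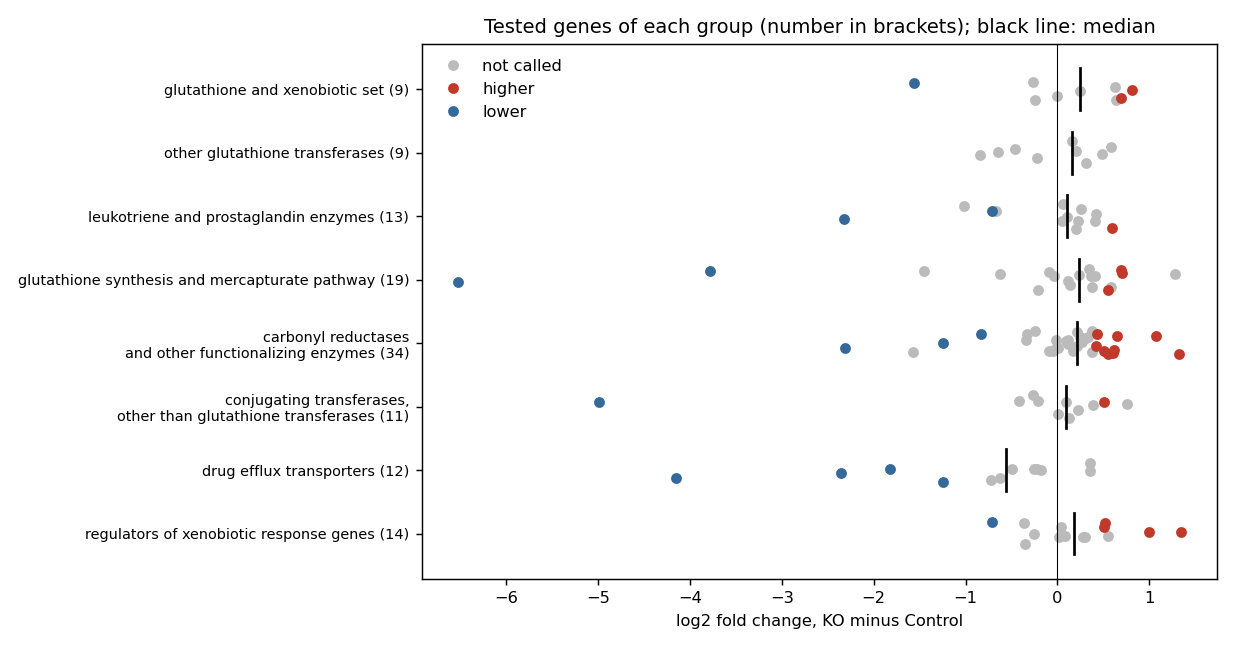
Log2 fold change (KO minus Control) of each tested gene in the 10-gene set and in the 7 pathway lists, 1 row of points per list, coloured by call, with the list median as a tick. The efflux transporters reach from -4.15 (Slc47a1) to 0.36 with a median of -0.56, while the medians of the other pathway lists lie between 0.10 and 0.24.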

How the data were processed

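Per the labels' protocols, total RNA extracted with TRIzol went into libraries built with the KAPA Hyper Prep kit. Trimmomatic 0.39, STAR 2.7.5c, StringTie 2.1.7 and the mouse build mm10 are named in the submitters' processing notes. The authors deposited unscaled whole-number counts of reads for each gene. How reads were counted, with which annotation and strand setting, is not given in the sources used here, so reads of close copies or antisense partners may be split or merged. Total counts per library set the precision of sparse genes. Intervals on ratios of counts cover counting error only.

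Counts were filtered with edgeR's filterByExpr (11453 of 31205 genes kept, all 6 libraries), scaled by TMM and tested for KO against Control with the edgeR 4.0.16 quasi-likelihood F test (limma 3.58.1, R 4.3.3), two-sided, with Benjamini-Hochberg adjustment over all tested genes and a threshold of 0.05. A call means an adjusted p under 0.05. The common biological coefficient of variation was 17.5%. Log2 fold changes are KO minus Control, and values are mean ± SD of 3 libraries. The steps were tested on simulated counts. With no length trend simulated, 3.85% of the edgeR calls fell on genes set to be unchanged. With a simulated length trend, 32.6% of the edgeR calls fell on genes unchanged apart from the trend. With the length and GC offsets this share was 2.72%. The simulated trend followed merged exon length, which the offsets also use, and held no trend with GC content. These shares therefore do not show how well the offsets work on these libraries. No 2 libraries held the same values, and replicate libraries differed beyond sampling noise.

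The 10 genes, the pathway and marker lists and the tests were chosen with earlier results of these data known, although the rule for the 10 genes uses no value. Named were all 10 genes, Cd274, 5 regulators and, from each list, the called genes of lowest adjusted p whose groups did not overlap (at most 4). Also named were the 5 tested genes nearest in pattern to the called gene of lowest p in each direction. These had at least 2 CPM, and predicted or mitochondrially encoded genes, by symbol, were left out. A gene that this rule selects is not reported here. Positions and lengths came from a GENCODE annotation of GRCm38, in which 30144 symbols matched directly, 343 by a synonym, 668 did not match and 50 named several genes. Length and GC content were known for 99.5% of tested genes. Promoters came from RefSeq.

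Alternatives were scaling by total counts, by the upper quartile or by DESeq2 size factors, no filter or 1 CPM in 3 libraries, the Wald test of DESeq2 1.42.0, limma-voom, a block on replicate number, length and GC offsets (loess, span 0.3) with and without the block, and leaving out each library. Offsets on the longest transcript were chosen after seeing the data.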

Additional observations from a re-analysis of the deposited data

How the results depend on the processing

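Under the 17 alternatives, Gstm1 was called in 16 (log2 fold change 0.45 to 0.88), Ephx1 in 15 (-1.89 to -1.30) and Gsto1 in 11 (0.30 to 0.86), all without a change of sign. With total counts alone, 667 of all genes and 8 of the 112 pathway genes were higher, in place of 1353 and 18. With no filter 4 of the 10 genes were higher (Gstp1 and Mgst3 besides Gstm1 and Gsto1). With offsets on the longest transcript 1 was higher (Gstm1), as were 11 pathway genes. Abcc1 changed sign and was called higher with the length and GC offsets (0.34, edgeR adjusted p = 0.0468); the cause was not tested. Leaving out 1 library gave 166 to 2346 higher and 472 to 2616 lower among all genes, the lowest without Control library 2 and the highest without KO library 1. In the same fits, 1 to 3 of the 10 genes were higher and 0 to 2 lower, and 4 to 28 pathway genes were higher and 8 to 22 lower. Same-numbered libraries of the groups had correlations of deviations of 0.15, -0.06 and 0.36. Libraries 1 and 3 correlated best with their own number, and KO library 2 with Control library 3 (0.11). The numbers were not taken to pair the libraries, but these few values cannot settle whether they do. With the replicate block 4 of the 10 genes were higher, Gstp1 (0.61, edgeR adjusted p = 0.0124) and Mgst3 (0.60, adjusted p = 0.0142) being added. With the block and the length and GC offsets together 0 were higher by edgeR (Gstm1 0.47, adjusted p = 0.0525), where 4 had an unadjusted p under 0.05. Depth limited Gsta4, Cbr3 and Ephx1, with 29, 73 and 264 counts over all libraries.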
